A study of Mus musculus with 12 samples.

Results

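The genes described here are the mouse Fc gamma receptors Fcgr1, Fcgr2b, Fcgr3 and Fcgr4, the signalling chain Fcer1g, and the receptor-like gene Fcrls, measured in the ascending aorta. They were chosen by name, as the receptors for IgG with their shared chain and one relative. Earlier results of these data were known when they were chosen, so the choice is not independent of the values. All 6 were among the 19938 genes with a single symbol on the array, each with 1 probe set. The test covered 15158 genes, 5 of the 6 among them, and Fcgr4 was too dim to enter it.

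The study measured RNA on 12 whole-transcript arrays in 4 groups of 3, from mice aged 6 weeks. All mice carried Myh11-CreERT2, a Cre made in smooth muscle cells and active once tamoxifen is given, together with floxed alleles of Tgfbr2, which encodes a receptor for TGF-beta. The groups were Fbn1 mutant knockouts, Fbn1 mutant controls, Fbn1 wild-type knockouts and Fbn1 wild-type controls, where the mutant is heterozygous for the Fbn1 allele C1039G, a model of Marfan syndrome. The descriptions of arrays 2 and 3 of each knockout group name Tgfbr3 and Tgfbr4, where the titles and sources of all knockout arrays name Tgfbr2, and the groups follow the titles. Knockouts were given 1 mg of tamoxifen intraperitoneally on 5 days from 4 weeks of age. Controls were given corn oil, so that knockout against control is also tamoxifen against its vehicle, and these cannot be told apart. The Cre is driven in smooth muscle, not in the blood-derived cells in which Fc gamma receptors are best known. Whether each array is a separate animal is not given in the labels, and p-values then measure the spread between these samples, which may be technical.

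Fc gamma receptors bind the constant part of IgG and so link antibody to phagocytes. In the mouse, the receptors encoded by Fcgr1, Fcgr3 and Fcgr4 are activating and pass their signal through the ITAM of the Fc receptor gamma chain, encoded by Fcer1g, to the kinase Syk. The receptor encoded by Fcgr2b carries an inhibitory ITIM, which recruits the phosphatase SHIP-1, the product of Inpp5d. Fcrls is related to the Fc receptors by sequence and is best known as a gene of mouse microglia, the resident macrophages of the brain. In a vessel wall these genes are mainly known from macrophages.

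Fcgr2b, Fcgr4, Fcgr3 and Fcer1g follow each other in that order on chromosome 1, and Fcrls and Fcgr1 lie far apart on chromosome 3, per RefSeq's annotation of GRCm38.p6. RefSeq promoter windows of the same build, running from 250 bases before to 50 bases after each start, were matched for 6 of 6 members. They were searched on both strands for GAGGAA, a core recognised by the macrophage factor PU.1, and for TTCNNNGAA, the element bound by STAT factors downstream of interferon. GAGGAA stood in the windows of Fcgr1, Fcgr3, Fcgr4 and Fcrls, and not in those of Fcgr2b and Fcer1g, so in 4 of 6 members, against 31.3% of all 27025 genes and 28.3% of all 32851 windows. TTCNNNGAA, which reads the same on both strands, stood in the window of Fcgr1 alone, against 9.55% of genes and 8.30% of windows. The 150 bases before the start are printed below for the 4 members with a match, 5′ to 3′ on the gene's own strand. For Fcgr3 and Fcrls the start used lies inside the annotated gene, which begins at 171065915 and 87263765 on the minus strand. Fcgr3 has another window with the match at -15 from its start, and the window with the match at -6 is printed. Capitals mark the matches, with TTCCTC being GAGGAA read on the other strand, and the matches do not overlap.
Fcgr1, minus strand of chr3:96293970-96294119: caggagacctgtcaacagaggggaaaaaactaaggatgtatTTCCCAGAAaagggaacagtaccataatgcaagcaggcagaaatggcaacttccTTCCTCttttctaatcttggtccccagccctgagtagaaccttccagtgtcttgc
Fcgr3, minus strand of chr1:171059404-171059553: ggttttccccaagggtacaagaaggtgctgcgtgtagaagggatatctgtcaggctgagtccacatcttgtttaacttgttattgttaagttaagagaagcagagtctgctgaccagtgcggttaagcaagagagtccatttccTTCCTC
Fcgr4, plus strand of chr1:171018776-171018925: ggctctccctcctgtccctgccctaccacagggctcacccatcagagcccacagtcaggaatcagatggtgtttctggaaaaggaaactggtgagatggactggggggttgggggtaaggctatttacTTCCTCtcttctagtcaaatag
Fcrls, minus strand of chr3:87263525-87263674: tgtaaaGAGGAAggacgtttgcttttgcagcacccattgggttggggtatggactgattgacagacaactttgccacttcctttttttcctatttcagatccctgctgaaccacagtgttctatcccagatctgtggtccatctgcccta
A match describes the letters and is not a binding site. The sequences show where the matched letters stand. Whether the letters relate to the level of any member was not tested.

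Levels are log2 of the deposited RMA intensity, differences are on the same log2 scale, and adjusted p-values are those of limma over the 15158 genes. Median intensity per array lay between 301 and 334, and the arrays of a group correlated at 0.993 to 0.996. Precision is limited by there being 3 arrays a group. The probe set of Tgfbr2 did not separate knockouts from controls in either genotype. It read 11.88, 11.95 and 11.79 in wild-type knockouts, against 11.96, 11.96 and 11.94 in wild-type controls (difference -0.08 ± 0.05 SE, adjusted p = 0.327). In the mutant it read 12.05, 12.07 and 11.98 in knockouts, against 12.04, 11.98 and 11.95 in controls (0.04 ± 0.05, adjusted p = 0.594). Mutant knockouts lay above wild-type knockouts with no overlap (0.16 ± 0.05, adjusted p = 0.0955). Where the Tgfbr2 probes lie relative to the floxed part was not analysed here, so this value does not check the label, and "knockout" is used as the labels use it. Because the tissue is bulk, more cells of a type and more RNA per cell cannot be told apart. Levels are not compared between genes, since probe sets differ in brightness. Fcgr2b, Fcgr3 and Fcgr4 are closely related in sequence and their probes could share signal, which was not tested.

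In the Fbn1 wild-type aorta, 5 of 5 tested members rose in knockouts, by 1.56-fold to 3.55-fold, with a median log2 difference of 1.06 against -0.01 over all genes tested. Of all genes tested, 9.08% rose at the same threshold. The 3 knockout arrays lay above the 3 control arrays in all 5, which was so for 16.2% of all genes tested.

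Among the activating receptors, Fcgr3, the low-affinity receptor found on macrophages and natural killer cells, read 9.87, 9.84 and 9.87 in wild-type knockouts, against 8.72, 8.82 and 8.85 in wild-type controls. Every knockout stood well above every control, with almost no spread among themselves. The difference was 1.06 ± 0.07 (SE, 95% interval 0.91 to 1.21, adjusted p = 2.25e-06), or 2.09-fold. Fcgr1, the high-affinity receptor, read 8.92, 8.42 and 8.51 in wild-type knockouts, against 7.87, 7.91 and 8.15 in wild-type controls. All knockouts were above all controls, and array 1 was the highest of the knockouts. The difference was 0.64 ± 0.13 (0.37 to 0.92, adjusted p = 0.00395), or 1.56-fold.

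Fcgr4, an activating receptor of intermediate affinity, read 7.79, 6.69 and 6.52 in wild-type knockouts, against 6.25, 6.55 and 6.48 in wild-type controls. Only array 1 of the knockouts was clearly high, and array 3 lay within the controls. Its mean over all arrays was below the lower limit for testing, a log2 level of 7.25, and lay at percentile 15.1 of the genes. An exact two-sided permutation test of its difference of 0.57 gave p = 0.2, where 3 arrays against 3 can reach 0.1 at the least. Fitted with all 19938 genes and no lower limit, the adjusted p was 0.138.

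The signalling chain rose as well. Fcer1g read 10.90, 10.71 and 11.10 in wild-type knockouts, against 9.83, 9.93 and 10.07 in wild-type controls. The groups were apart, and the lowest knockout was array 2. The difference was 0.96 ± 0.13 (0.68 to 1.23, adjusted p = 0.000266), or 1.94-fold.

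The inhibitory receptor Fcgr2b read 10.43, 10.49 and 10.57 in wild-type knockouts, against 9.27, 9.39 and 9.35 in wild-type controls. Both groups were tight and far apart. The difference was 1.16 ± 0.06 (1.03 to 1.29, adjusted p = 8.51e-07), or 2.24-fold.

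Fcrls changed most among the 5 tested members and was rank 4 of all tested genes by upward difference, with Fcgr2b at rank 55 and Fcgr3 at rank 74. It read 10.30, 10.37 and 10.47 in wild-type knockouts, against 8.42, 8.47 and 8.76 in wild-type controls. No knockout came near a control. The difference was 1.83 ± 0.10 (1.61 to 2.05, adjusted p = 1.01e-06), or 3.55-fold.

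**Figure D1:**
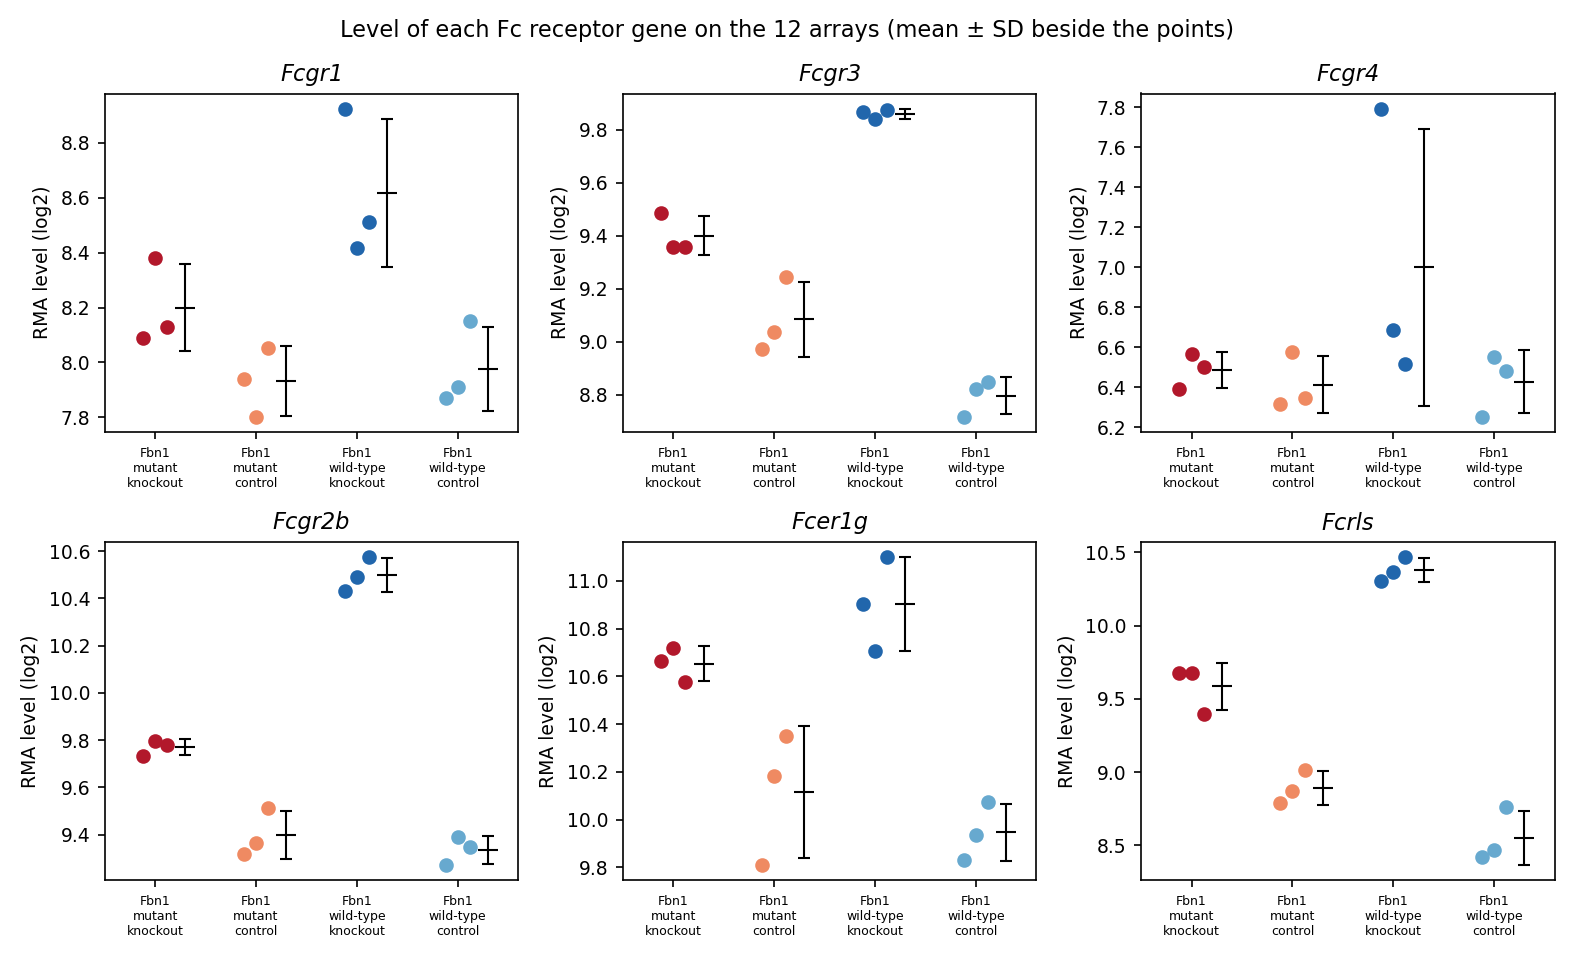
RMA level (log2) of each of the 6 genes on every array, in 4 groups of 3, with the mean and SD of each group beside its points. The knockouts lie above the controls in both Fbn1 genotypes for Fcgr1, Fcgr3, Fcgr2b, Fcer1g and Fcrls, by a narrow gap for Fcgr1 in the mutant. The 3 wild-type knockouts are highest for Fcgr1, Fcgr2b, Fcgr3 and Fcrls, and Fcgr4 is high on 1 array.

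In the Fbn1 mutant aorta the same comparison gave smaller differences. Of the 5 tested members 4 rose, Fcgr3, Fcer1g, Fcgr2b and Fcrls, and Fcgr1 did not pass the test, with a median of 0.37 against 0.03 over all genes tested. Of all genes tested 7.67% rose. Knockout arrays were above control arrays in all 5, which held for 21.8% of all genes tested.

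Fcgr3 read 9.48, 9.36 and 9.36 in mutant knockouts, against 8.97, 9.03 and 9.24 in mutant controls. The groups were apart by a small gap at control array 3. The difference was 0.32 ± 0.07 (0.17 to 0.47, adjusted p = 0.0124), and the adjusted p was 0.0531 without mutant control 2 and 0.0502 without mutant knockout 1. Fcgr1 read 8.09, 8.38 and 8.13 in mutant knockouts, against 7.94, 7.80 and 8.05 in mutant controls. The gap between the groups was narrow, and knockout array 2 was the highest. Its difference of 0.27 ± 0.13 (-0.01 to 0.54) had an adjusted p of 0.168.

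Fcgr4 showed no high array in the mutant. It read 6.39, 6.57 and 6.50 in mutant knockouts, against 6.31, 6.58 and 6.35 in mutant controls. The groups overlapped (difference 0.07, exact permutation p = 0.5).

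Fcer1g read 10.66, 10.72 and 10.57 in mutant knockouts, against 9.81, 10.18 and 10.35 in mutant controls. Its controls were spread widely, all below the knockouts. The difference was 0.54 ± 0.13 (0.26 to 0.81, adjusted p = 0.0171), and the adjusted p was 0.0586 without mutant knockout 2. Fcgr2b read 9.73, 9.80 and 9.78 in mutant knockouts, against 9.32, 9.37 and 9.51 in mutant controls. The knockouts were tight and above every control. The difference was 0.37 ± 0.06 (0.24 to 0.50, adjusted p = 0.00262).

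Fcrls had the largest of these differences in the mutant too. It read 9.68, 9.68 and 9.40 in mutant knockouts, against 8.79, 8.87 and 9.02 in mutant controls. The groups did not overlap, and the lowest knockout was array 3. The difference was 0.69 ± 0.10 (0.47 to 0.91, adjusted p = 0.00122), or 1.62-fold.

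The knockout difference was tested between the genotypes as the mutant effect minus the wild-type effect. It was lower in the mutant for 3 of 5 tested members, and 1.06% of all genes tested were called lower. For Fcrls the difference of the effects was -1.14 ± 0.14 (-1.44 to -0.83, adjusted p = 0.00253). Fcgr2b gave -0.79 ± 0.09 (-0.98 to -0.61, adjusted p = 0.00129). Fcgr3 gave -0.75 ± 0.10 (-0.96 to -0.54, adjusted p = 0.00311). These are the inhibitory receptor, one activating receptor and the microglial gene. The signalling chain Fcer1g, at -0.42 ± 0.18 (-0.80 to -0.03, adjusted p = 0.265), did not pass. Nor did Fcgr1, at -0.37 ± 0.18 (-0.76 to 0.01, adjusted p = 0.319), which was -0.22 without wild-type knockout 1. Their intervals include differences as large as that of Fcgr3, so they are not shown to differ from it.

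**Figure D2:**
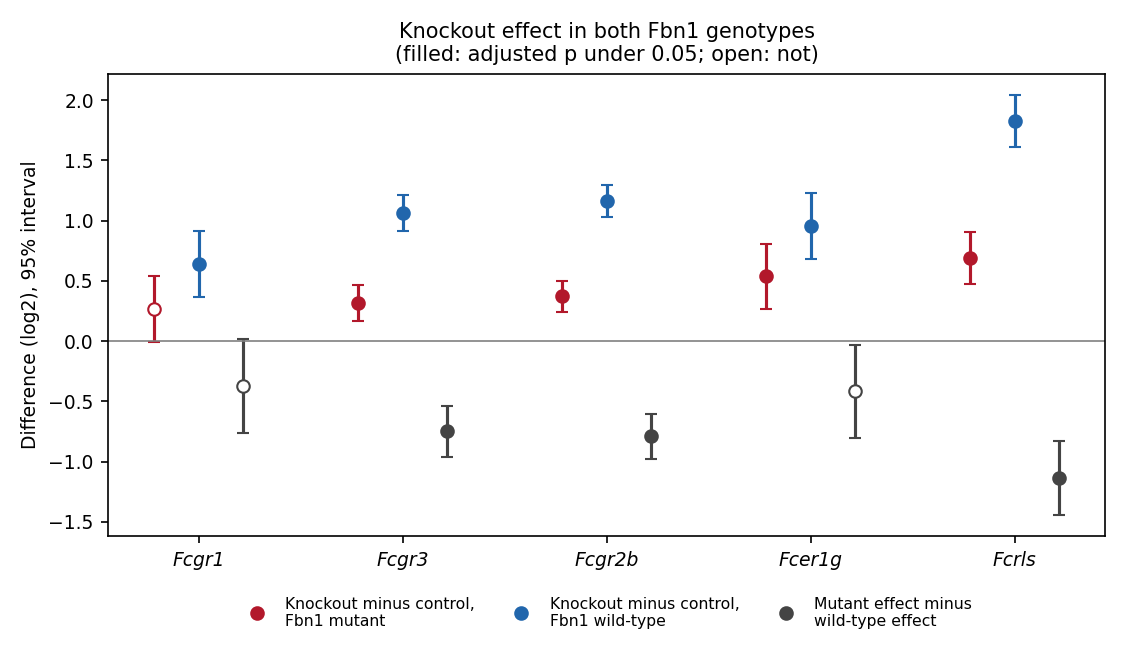
Knockout minus control difference (log2) with its 95% interval for the 5 tested members, in the Fbn1 mutant and the Fbn1 wild-type, and the mutant effect minus the wild-type effect. Filled points passed an adjusted p of 0.05, and the wild-type difference is the larger for every gene, with Fcrls at 1.83 against 0.69 in the mutant.

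Between Fbn1 mutant and Fbn1 wild-type controls, 1 of 5 tested members rose, where 3.14% of all genes did. It was the activating receptor Fcgr3, with the 3 mutant controls at 8.97, 9.03 and 9.24 all above the 3 wild-type controls at 8.72, 8.82 and 8.85 (difference 0.29 ± 0.07, adjusted p = 0.029). The call depended on single arrays. The adjusted p was 0.0867 without wild-type control 1, 0.0663 without wild-type control 2, 0.0714 without mutant control 2 and 0.0717 without mutant control 3, which also brought the difference to 0.21. Fcrls lay 0.34 ± 0.10 higher in mutant controls, again with no overlap, at an adjusted p of 0.061. It was 0.0235 without wild-type control 3 and 0.0393 without mutant knockout 3. Mutant arrays were above wild-type arrays for these 2 of 5 genes, and for 11.3% of all genes tested. The differences of Fcer1g (0.17 ± 0.13), Fcgr2b (0.06 ± 0.06) and Fcgr1 (-0.04 ± 0.13) had adjusted p-values of 0.444, 0.56 and 0.861. The difference of Fcgr4 was -0.02 (exact permutation p = 1).

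Between Fbn1 mutant and Fbn1 wild-type knockouts, 3 of 5 tested members were lower in the mutant, where 3.11% of all genes were. Fcrls differed by -0.79 ± 0.10 (0.577-fold, adjusted p = 0.000767), Fcgr2b by -0.73 ± 0.06 (0.604-fold, adjusted p = 0.000113) and Fcgr3 by -0.46 ± 0.07 (0.727-fold, adjusted p = 0.0023). Fcgr1 differed by -0.42 ± 0.13 (adjusted p = 0.0749), by -0.27 without wild-type knockout 1 (adjusted p = 0.248), and by -0.48 with array weights (adjusted p = 0.0262). For these 4 of 5 genes every mutant knockout lay below every wild-type knockout, which was so for 11.8% of all genes. The signalling chain Fcer1g overlapped between them (-0.25 ± 0.13, adjusted p = 0.297), with mutant knockouts at 10.57 to 10.72 and the lowest wild-type knockout at 10.71. Fcgr4 differed by -0.51 (exact permutation p = 0.2), which rests on wild-type knockout 1.

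These comparisons share groups with each other, so their values are set side by side and are not independent. Across the 4 groups, Fcgr3, Fcrls, Fcgr2b and Fcer1g had the same order of mean levels, with wild-type knockouts highest, then mutant knockouts, then mutant controls, then wild-type controls. For Fcgr3 and Fcrls no neighbours in that order overlapped. For Fcgr2b the mutant controls (9.40 ± 0.10 SD, n = 3) and the wild-type controls (9.34 ± 0.06, n = 3) overlapped. For Fcer1g only the mutant knockouts (10.65 ± 0.07) and the mutant controls (10.12 ± 0.28) were apart among neighbours. For Fcgr1 only the highest step, mutant knockouts at 8.20 ± 0.16 against wild-type knockouts at 8.62 ± 0.27, was free of overlap. For Fcgr4 no step was. How many of all genes tested have the order of Fcgr3 and Fcrls, or no overlap at any step, was not counted. The order was not particular to the members. The mean level of the 25 tested macrophage markers, described below, was 10.18 in wild-type knockouts, 9.89 in mutant knockouts, 9.53 in mutant controls and 9.43 in wild-type controls. The mean of the microglia signature had this order too, and those of smooth muscle and fibroblast markers did not.

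The balance of activating to inhibitory receptor was followed on each array as the log2 level of an activating receptor minus that of Fcgr2b. Its zero has no meaning, because 2 probe sets enter, but its change between groups has. Fcgr3 minus Fcgr2b was -0.25, -0.44 and -0.42 in mutant knockouts and -0.34, -0.33 and -0.27 in mutant controls. It was -0.56, -0.65 and -0.70 in wild-type knockouts and -0.55, -0.57 and -0.50 in wild-type controls. Every mutant array lay above every wild-type array, whatever its Tgfbr2 status. The mutant was 0.25 higher over both strata, with 0.27 among knockouts and 0.23 among controls. Among controls Fcgr3 was higher by 0.29 and Fcgr2b by 0.06. Among knockouts both were lower in the mutant, Fcgr3 by -0.46 and Fcgr2b by -0.73. How many other pairs of genes separate the genotypes this way was not counted. An exact two-sided permutation test within Tgfbr2 status gave p = 0.005, the smallest of its 400 assignments, and 0.03 after Benjamini-Hochberg adjustment over 6 such tests.

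No change of this balance with the knockout passed the adjusted test with all arrays in. Fcgr3 minus Fcgr2b changed by -0.08 over both genotypes (exact permutation p = 0.085, adjusted 0.135), and the adjusted p was 0.03 without mutant knockout 1. Fcgr1 minus Fcgr2b changed by -0.31, with -0.10 in the mutant and -0.52 in the wild-type (exact permutation p = 0.03, adjusted 0.09). Its adjusted p was 0.03 without wild-type knockout 1 and 0.045 without mutant knockout 2, the arrays on which Fcgr1 was highest in each knockout group. Fcgr4 minus Fcgr2b changed by -0.44 (exact permutation p = 0.09, adjusted 0.135). Fcgr4 lay under the lower limit on every array but wild-type knockout 1, so this value mostly restates the level of Fcgr2b and does not measure a balance. Between mutant and wild-type, Fcgr1 minus Fcgr2b differed by 0.10 (adjusted p = 0.486) and Fcgr4 minus Fcgr2b by 0.07 (adjusted p = 0.795).

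**Figure D3:**
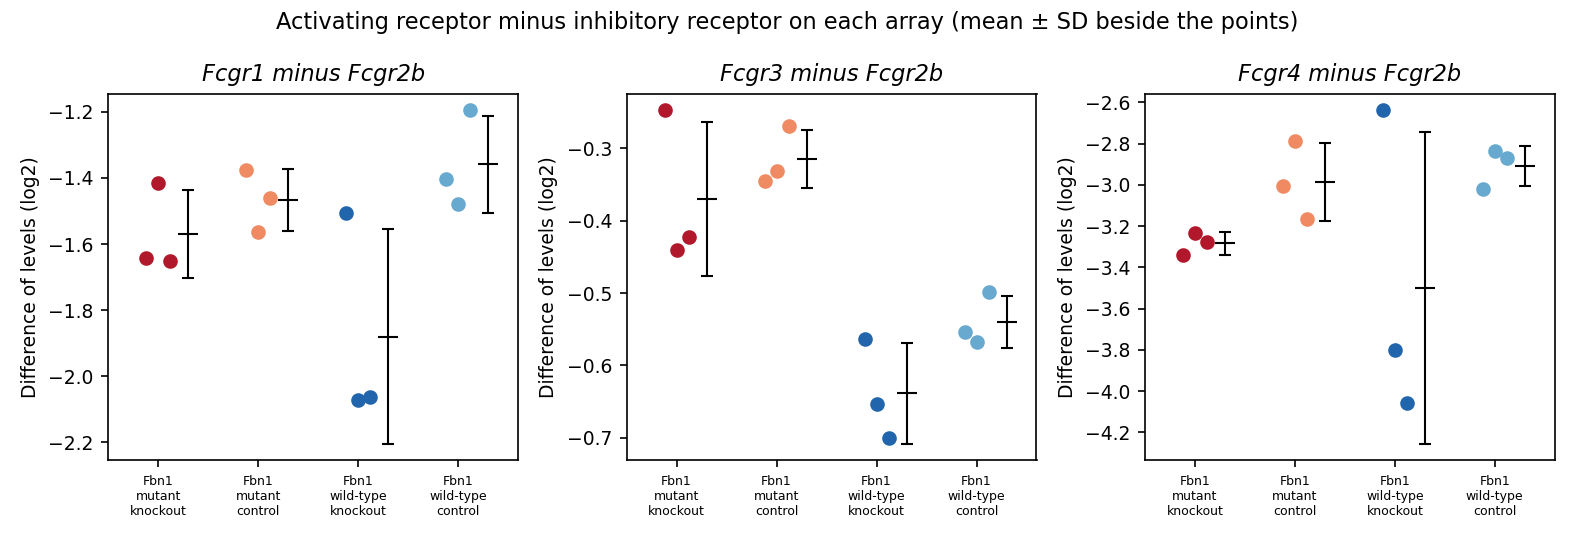
Log2 level of each activating receptor minus that of the inhibitory Fcgr2b on every array, by group. For Fcgr3 the 6 mutant arrays lie between -0.44 and -0.25 and the 6 wild-type arrays between -0.70 and -0.50.

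Genes that act downstream of the receptors were followed as a list of 27, of which 24 were tested. In the wild-type, 17 of 24 rose in knockouts and 0 fell, where 9.08% of all genes tested rose. At an unadjusted limma p under 0.05, 19 were higher and 2 lower, and the median was 0.40. Cybb, a subunit of the phagocyte NADPH oxidase, rose by 1.08 ± 0.11 (adjusted p = 4.83e-05). Inpp5d, the phosphatase recruited by Fcgr2b, rose by 0.70 ± 0.08 (adjusted p = 6.46e-05). Vav1, an exchange factor that acts after Syk, rose by 0.64 ± 0.08 (adjusted p = 0.000134). Tyrobp, an ITAM chain related to Fcer1g in function, rose by 1.00 ± 0.12 (adjusted p = 0.000159). Inpp5d acts against the signal that Vav1 and Cybb carry, and all of these rose.

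In the mutant, 2 of the 24 rose in knockouts, near the share of 7.67% of all genes tested, with a median of 0.15. They were Ncf1, the oxidase organiser, at 0.33 ± 0.09 (adjusted p = 0.0333) and Inpp5d at 0.28 ± 0.08 (adjusted p = 0.0292). At an unadjusted limma p under 0.05, 12 of the 24 were higher and 1 lower. The effects of Vav1 (-0.59 ± 0.11, adjusted p = 0.0188) and Cybb (-0.82 ± 0.15, adjusted p = 0.0239) were lower in the mutant than in the wild-type. These 2 of 24 passed that test, where 1.06% of all genes tested were called lower. At an unadjusted limma p under 0.05, 12 of 24 had a lower effect in the mutant. Between mutant and wild-type controls, Syk was higher by 0.27 ± 0.07 (adjusted p = 0.0422), and Vav3 and the kinase Prkcd were lower by -0.35 ± 0.08 and -0.25 ± 0.07 (adjusted p = 0.0294 and 0.0489). Thus 1 of 24 was higher, near the 3.14% of all genes tested that were, and 2 of 24 were lower. Counting both directions, 975 of all 15158 genes tested were called. At an unadjusted limma p under 0.05, 4 of the 24 were higher and 2 lower. Between mutant and wild-type knockouts, 4 of 24 were lower: Inpp5d (-0.39 ± 0.08), Cybb (-0.56 ± 0.11), Vav1 (-0.32 ± 0.08) and the adaptor Lcp2 (-0.37 ± 0.09). Of all genes tested 3.11% were lower, and 15 of the 24 were lower at an unadjusted limma p under 0.05.

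Markers of macrophages moved with the members. Of 26 listed markers 25 were tested, with Aif1 too dim. In the mutant 11 of 25 rose in knockouts with a median of 0.32, where 7.67% of all genes tested rose. In the wild-type 21 of 25 rose with a median of 0.82, where 9.08% of all genes tested rose. At an unadjusted limma p under 0.05 the counts were 19 in the mutant and 22 in the wild-type. The mean log2 level of the markers was 9.88 to 9.90 in mutant knockouts and 9.43 to 9.69 in mutant controls. It was 10.11 to 10.24 in wild-type knockouts and 9.35 to 9.55 in wild-type controls. The integrin Itgam rose by 1.03, the receptor Adgre1 by 1.22, Trem2 by 0.76 and Csf1r, the receptor of macrophage growth factor, by 0.98 in wild-type knockouts. In 6 of 25 the effect was lower in the mutant than in the wild-type, where it was in 1.06% of all genes tested. Between knockouts 8 of 25 were lower in the mutant, where 3.11% of all genes tested were. At an unadjusted limma p under 0.05 these counts were 14 and 13. Between controls 2 of 25 were higher in the mutant, where 3.14% of all genes tested were. The part of these markers in the members' changes was not tested.

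Against the mean of the 25 macrophage markers on the same array, the members moved by different amounts in the wild-type. Fcrls was 1.07 further up in knockouts than that mean, and 0 of the 25 markers changed more. Fcgr2b was 0.41 further up and Fcgr3 0.31, with 2 and 4 of 25 markers changing more. Fcer1g was 0.20 further up, with 8 markers changing more. For these 4 genes the knockout arrays stayed above the control arrays after the subtraction. The share of all genes that stay apart after it was not counted, here or in the comparisons that follow. Fcgr1 was -0.12 from the marker mean, with 16 of 25 markers changing more, and its groups overlapped. In the mutant only Fcrls (0.33, with 1 of 25 markers changing more) kept its knockouts above its controls, and Fcer1g (0.18), Fcgr2b (0.01), Fcgr3 (-0.04) and Fcgr1 (-0.09) overlapped. Mutant knockouts stayed below wild-type knockouts after the subtraction for Fcrls (-0.50), Fcgr2b (-0.43) and Fcgr3 (-0.17), and overlapped for Fcgr1 (-0.12) and Fcer1g (0.05).

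**Figure D4:**
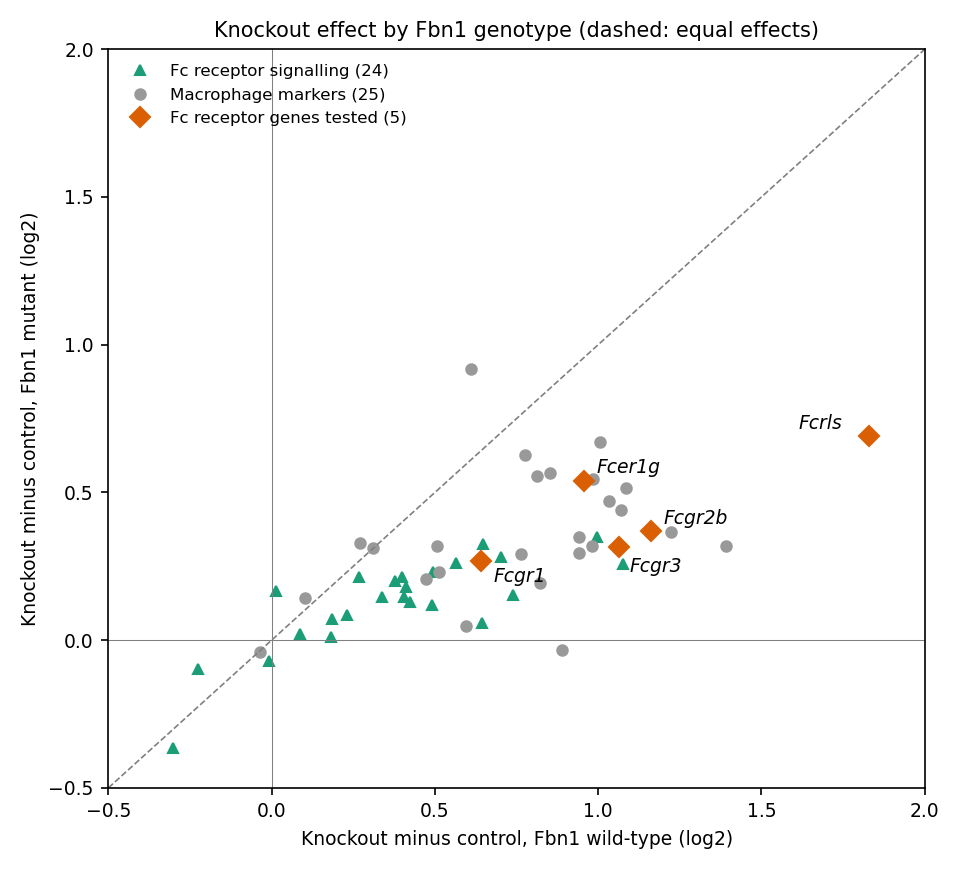
Knockout minus control difference (log2) in the Fbn1 mutant against that in the Fbn1 wild-type, for the 5 tested members, the macrophage markers and the downstream genes. Fcrls lies at 1.83 in the wild-type, beyond all 25 macrophage markers, and the other 4 members lie within their range.

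The 8 genes whose pattern over the 12 arrays was most like the mean of the members were C1qa, Adgre1, Itgam, Laptm5, Cd53, Pld4, C1qb and Csf1r. Likeness was measured as the root-mean-square difference of centred log2 levels, 0.0654 for C1qa and 0.109 for Csf1r, where the ninth gene had 0.112 and the median over 15153 genes was 0.457. Among the members this distance was 0.0858 for Fcgr3, 0.101 for Fcgr2b, 0.132 for Fcer1g, 0.22 for Fcgr1 and 0.273 for Fcrls. C1qa, which encodes a chain of complement C1q, rose in knockouts, with 0.51 in the mutant and 1.08 in the wild-type. Cd53, a leukocyte tetraspanin, had 0.45 in the mutant and 1.27 in the wild-type. Fcrls and Fcgr1 were the least like the common pattern, Fcrls by moving further and Fcgr1 by moving less and by single high arrays.

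Genes of the mouse microglia signature were followed because Fcrls belongs to it. For the counts of genes that rose here and below, 7.67% of all genes tested rose in mutant knockouts and 9.08% in wild-type knockouts. Of 7 tested, 4 rose in wild-type knockouts: Tmem119 by 0.75 ± 0.09, P2ry12 by 0.56 ± 0.08, P2ry13 by 0.54 ± 0.13 and Olfml3 by 0.44 ± 0.10. In the mutant Tmem119 (0.62 ± 0.09) and P2ry12 (0.32 ± 0.08) rose. The effect differed between the genotypes for 0 of these 7 by limma, and for 0 at an unadjusted p under 0.05.

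Markers of other cells that carry Fc receptors were mostly dim. Of neutrophil and monocyte markers 3 of 16 were tested and 11 were too dim, S100a8, S100a9, Csf3r, Cxcr2 and Ly6g among them. In the mutant Mpo rose by 0.21, and in the wild-type 0 of 3 passed limma's test, with 1 at an unadjusted p under 0.05. Of mast cell markers, whose cells use Fcer1g in the IgE receptor, 0 of 5 passed in the mutant, with 1 at an unadjusted p under 0.05, and 0 in the wild-type, with 3. The mast cell protease gene Cpa3 differed by 1.05 ± 0.46 in the wild-type (adjusted p = 0.134). Among 4 B cell markers Cd79b rose by 0.15 in the mutant, and 0 passed in the wild-type, with 0 at an unadjusted p under 0.05. Among 5 T and natural killer cell markers Prf1 rose by 0.20 in the mutant, while the list's median there was -0.22 and 2 markers were lower at an unadjusted p under 0.05. Of the same 5, 0 passed in the wild-type, with 1 at an unadjusted p under 0.05. Among 6 dendritic cell markers 0 passed in the mutant, with 0 at an unadjusted p under 0.05, and 2 rose in the wild-type, Cd209a by 0.79 and Flt3 by 0.16.

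Most other Fc receptors were too dim to test. Of 12 listed, 4 were tested and 7 were too dim, including Fcer1a and Ms4a2 of the IgE receptor. In the mutant Fcmr, the IgM receptor gene, rose by 0.22 (adjusted p = 0.0247), and in the wild-type 0 of 4 passed limma's test, with 0 at an unadjusted p under 0.05. Of 10 other receptors that pair with the gamma chain only Oscar and Tarm1 were tested, and 0 passed in either genotype, with 1 at an unadjusted p under 0.05 in the mutant and 0 in the wild-type. Among genes of IgG and plasma cells, 0 of 3 passed in the mutant, with 0 at an unadjusted p under 0.05, and Sdc1 rose by 0.40 in the wild-type.

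Smooth muscle, endothelial and fibroblast markers held genes that rose and genes that fell. Of all genes tested 2818 were called in wild-type knockouts and 2023 in mutant knockouts, counting both directions. Of 10 smooth muscle markers 2 rose and 1 fell in mutant knockouts, and 1 rose and 2 fell in wild-type knockouts. At an unadjusted limma p under 0.05, 2 were higher and 1 lower in the mutant, and 2 higher and 4 lower in the wild-type. Of 10 endothelial markers 4 rose and 1 fell in the mutant (median 0.32), and 3 rose and 1 fell in the wild-type (median 0.28). Unadjusted, 6 were higher and 1 lower in the mutant, and 7 higher and 1 lower in the wild-type. Of 9 fibroblast markers 1 rose and 2 fell in the mutant, and 4 rose and 1 fell in the wild-type. Unadjusted, 1 was higher and 4 lower in the mutant, and 4 higher and 1 lower in the wild-type. Of adipocyte markers 1 of 7 rose in each genotype, with medians of 0.30 in the mutant and 0.20 in the wild-type. Unadjusted, 2 were higher in the mutant and 1 in the wild-type. Of 15 immediate early genes 2 rose in the mutant (median 0.33) and 1 in the wild-type (median 0.27). Unadjusted, 6 were higher in the mutant and 2 in the wild-type. In the mutant the medians of the endothelial, adipocyte and immediate early lists were near that of the macrophage markers (0.32). In the wild-type they were below it (0.82).

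Genes that neighbour the members on chromosome 1 were also followed. Between Fcgr2b and Fcer1g lie 7 other protein-coding genes, of which 5 were tested, chosen by position after the members' values were known. Their differences in wild-type knockouts ran between -0.12 and 0.09, and 0 passed limma's test, with 1 at an unadjusted p under 0.05. In the mutant 2 of the 5 rose in knockouts, Pcp4l1 by 0.47 (adjusted p = 0.000459) and Cfap126 by 0.19 (adjusted p = 0.0429). Pcp4l1 was also higher in mutant than in wild-type knockouts, by 0.32 (adjusted p = 0.00846).

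Fcgr1 and Fcgr4, known as interferon-induced Fc receptors, both had their highest level of all arrays on wild-type knockout 1. A list of 22 interferon-induced genes was then followed, chosen after these values were seen. The mean log2 level of its 15 tested genes was 9.29, 9.73 and 9.19 in mutant knockouts and 8.77, 8.96 and 9.04 in mutant controls. It was 9.95, 9.09 and 9.30 in wild-type knockouts and 8.86, 8.86 and 9.22 in wild-type controls. Mutant knockout 2 was the highest of its group, as for Fcgr1 (8.38), and so was wild-type knockout 1, as for Fcgr1 (8.92) and Fcgr4 (7.79). Fcgr4 read 6.57 on mutant knockout 2, under the lower limit and within the mutant controls, and its order among the mutant arrays carries no information. Of the 15 genes 2 rose in the mutant (median 0.44) and 3 in the wild-type (median 0.42). Their part in the levels of Fcgr1 and Fcgr4 was not tested. With both arrays left out, Fcgr1 differed by 0.18 in the mutant (adjusted p = 0.278) and rose by 0.49 in the wild-type (adjusted p = 0.00782). Fcgr1 itself was highest on these arrays in each knockout group, so leaving them out had to lower its differences. This fit therefore cannot say whether the differences of Fcgr1 go with the interferon-induced genes. Without both arrays 3 of 5 members rose in the mutant, where Fcer1g had an adjusted p of 0.0796, and 5 of 5 in the wild-type.

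**Figure D5:**
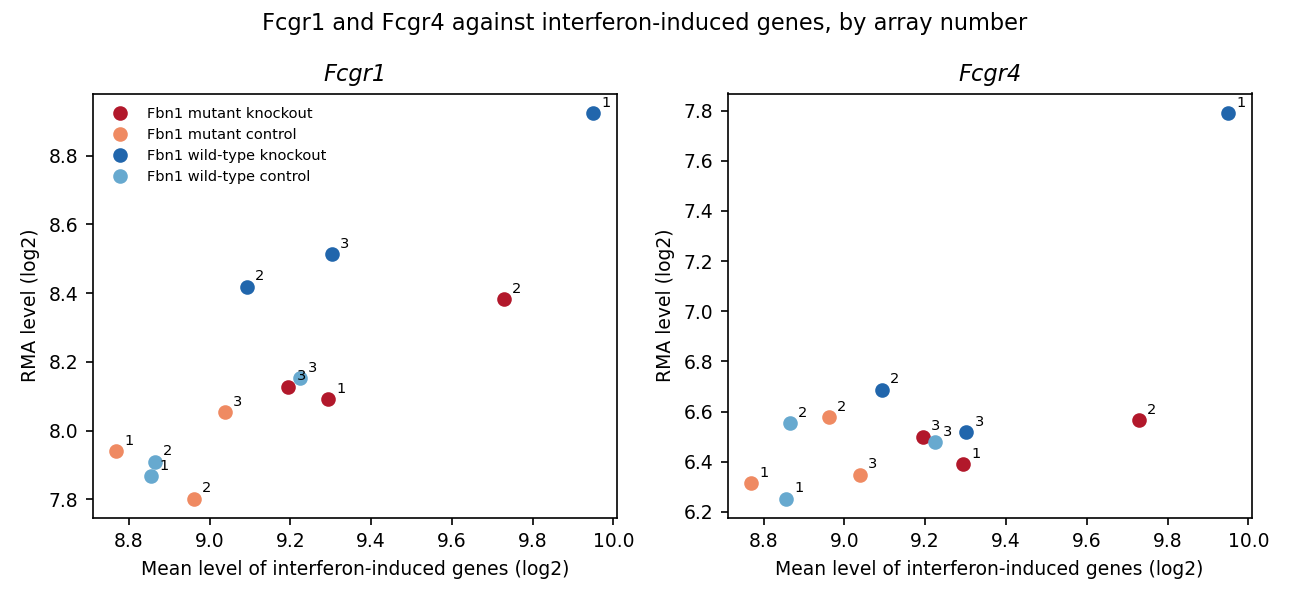
Level of Fcgr1 and Fcgr4 (log2) on each array against the mean log2 level of 15 interferon-induced genes, with the array number beside each point. Wild-type knockout 1 is highest on both axes, at 9.95 for the interferon-induced genes and 8.92 and 7.79 for the receptors, and mutant knockout 2 is the highest mutant array for the interferon-induced genes and for Fcgr1.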

How the data were processed

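The authors hybridised RNA of the ascending aorta to 1-colour Affymetrix whole-transcript arrays, and the deposited values are linear intensity after RMA in Partek 6.4, per the submitters' processing notes. Log2 was taken here. Of 35556 probe sets 21789 had 1 symbol in the platform annotation, 21698 of them matched by Entrez ID with 0 symbols updated, and the probe set of highest mean represented each of 19938 genes. Genes with a mean under the 25th percentile (log2 7.25, intensity 152) were not tested, which left 15158. One coefficient per group was fitted to 12 arrays with limma 3.58.1 (lmFit, eBayes) in R 4.3.3, with Benjamini-Hochberg adjustment over all genes tested and a threshold of 0.05. The difference of knockout effects was fitted as a contrast. The fit was tested on simulated data in which 200 genes were changed. At a log2 change of 0.5 it recovered 65% of them for the difference of effects, and 87.5% to 92.5% for the other comparisons. An effect difference of this size can therefore be missed. False calls made up 1.69% to 9.31% of calls, so in some runs their share exceeded the threshold of 0.05.

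The members and the 16 gene lists, which hold 205 entries, were chosen with earlier results of these data known, so no list is independent evidence. Genes named are the members, the 8 most like them, Tgfbr2 and up to 4 members of smallest p per list and comparison, and any others were chosen after their values were seen. Genes called too dim are those under the lower limit.

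Arrays of the same number were not paired: of 18 same-numbered pairs 3 correlated above 0.1 in their deviations from the group means (range -0.22 to 0.24), and 4 of 12 arrays correlated best with their own number. Alternatives covered the limit on dim genes, the scaling between arrays, how probe sets stand for genes, how variance is modelled, weights for arrays, which groups enter, a replicate block, and each array left out in turn. Leaving out the arrays of high interferon-induced genes was added after the data were seen. Raw scans and detection calls were not used.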

Additional observations from a re-analysis of the deposited data

Results flagged for a closer look

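A test of the difference between the knockout effect in the Fbn1 mutant and that in the Fbn1 wild-type marked 3 of the 5 tested members for a closer look. The difference of the effects, mutant minus wild-type, was -1.14 on the log2 scale for Fcrls, with knockout effects of 0.69 in the mutant and 1.83 in the wild-type. It was -0.79 for the inhibitory receptor Fcgr2b, with 0.37 in the mutant and 1.16 in the wild-type. It was -0.75 for the activating receptor Fcgr3, with 0.32 in the mutant and 1.06 in the wild-type. All 3 genes passed an adjusted p of 0.05 in limma under each of 22 alternatives.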

How the results depend on the processing

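Each comparison was recomputed under 23 alternatives, and the difference of knockout effects under 22. The number of members called was 4 to 5 in wild-type knockouts, 3 to 4 in mutant knockouts, 3 to 4 between knockouts and 3 throughout for the difference of effects, with leave-one-out ranges of 5 to 5, 3 to 4, 3 to 3 and 3 to 3. The 4 in the wild-type comes from a limit at the median, where Fcgr1 was not tested. Between mutant and wild-type controls the 1 call was least stable: it was 0 with each array centred on its median, 0 with the other 2 groups left out of the model, 0 without mutant control 3 and mutant knockout 1 (a pair chosen for high Ucp1 in earlier results of these data), 0 without wild-type knockout 1 and mutant knockout 2 (added after the data were seen), 2 with array weights, and 0 to 2 leaving out 1 array at a time. Fcgr3 lost that call in 8 alternatives (adjusted p up to 0.088), and Fcrls gained it with array weights (adjusted p = 0.0157). The cause was not tested. The difference of Fcgr1 between controls, -0.04, ran from -0.105 without mutant control 3 to 0.0431 without wild-type control 3, and was 0.02 without mutant control 2. The change in Fcgr1 minus Fcgr2b with knockout was -0.34 after quantile normalisation (adjusted p = 0.03), and ran from -0.41 to -0.26 leaving out 1 array at a time. That of Fcgr3 minus Fcgr2b ran from -0.108 to -0.0591 and that of Fcgr4 minus Fcgr2b from -0.66 to -0.31, where the lowest, without wild-type knockout 1, leaves Fcgr4 under the lower limit on every array and says nothing of Fcgr4. Between mutant and wild-type, Fcgr4 minus Fcgr2b ran from -0.0707 without wild-type knockout 3 to 0.28, and was -0.00747 when wild-type knockout 2 was left out. The mutant's shift in Fcgr3 minus Fcgr2b ran from 0.22 to 0.27.

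With the replicate block, 5, 4, 1, 3 and 3 members were called in the 5 comparisons in the order wild-type knockout, mutant knockout, controls, knockouts and difference, as without it.

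The number of all genes called depends more on the setting. In wild-type knockouts it was 2818, against 1877 without wild-type knockout 1, 1844 without wild-type knockout 3 and 1752 without both arrays of high interferon-induced genes. In mutant knockouts it was 2023, against 3694 with array weights, 1267 with the other 2 groups left out, 1098 without the pair chosen for Ucp1, 858 without those of high interferon-induced genes, 1224 and 903 without mutant control 1 or 2, and 1174 and 1063 without mutant knockout 1 or 2. Between controls it was 975, against 1556 with array weights, 487 with the other groups left out, 536 and 356 without mutant control 1 or 2, and 485 and 556 without wild-type control 2 or 3. Between knockouts it was 891, against 1654 with array weights, 412 and 308 without either pair of arrays, 383 without mutant knockout 1, and 460 and 495 without wild-type knockout 1 or 3. For the difference of effects it was 223, against 469 with array weights, 67 without the arrays of high interferon-induced genes, 119 without mutant control 2, 143 and 128 without mutant knockout 1 or 2, and 108 and 111 without wild-type knockout 1 or 3. Another scaling moved the median of all genes by 0.04 at most.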
